A study of Mus musculus with 13 samples.

Results

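A set of 9 macrophage transcripts was followed through every library of endothelial cells (ECs) that had been sorted from mouse tumors or from vascular sprouts. The 9 genes were chosen by symbol: Csf1r, Mrc1, Tyrobp, Fcer1g, C1qa, C1qb, Lyz2, Cd68 and Laptm5. All 9 were listed among the 24984 genes of the tumor libraries and among the 24421 genes of the sprout libraries. The question was how much myeloid RNA each sorted pool carried, and whether it followed Apelin status.

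Tumor ECs came from E0771 mammary tumors, a mouse mammary cancer line, grown in C57BL6/J mice and harvested at day 25. The Apelin-depleted group (n = 3) was Apln-/- mice bearing tumors with shApln, and the Apelin wild-type group (n = 6) was wild-type mice bearing tumors with shRenilla, so host and tumor cells lost Apelin together and their effects cannot be told apart. Each tumor library was made by Smart-Seq2 from 100 cells sorted as CD31+ and CD105+ and, per the study's methods, CD45-. Sprout ECs were CD31+ cells from embryoid bodies grown from sister clones of 1 gene-trap embryonic stem cell line (C57BL/6x129), cultured in collagen with VEGFA164 at 30 ng/ml. The Apln STOP libraries (n = 2) carry the trap in sense and, by the study's legends, received DMSO, and the Apln GO libraries (n = 2) carry it in antisense and received Apelin at 1000 nM, so that genotype and added peptide changed together. The protocol in the sample records gives Apelin at 1000 nM for STOP and GO libraries alike, so DMSO in STOP rests on the legends. No CD45 gate was described for the sprouts. Ages of the mice were not given in the sources used here, and the labels name no animal or culture for a library, although the group sizes in the study's legend for the tumor ECs match the libraries, so p-values measure the spread between these libraries, part of which may be technical.

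Macrophages are phagocytes that enter tumors from blood monocytes or arise in tissues, and lie close to blood vessels, where they clear debris, present antigen and release angiogenic factors. They depend on CSF1R, the receptor for CSF1 and IL-34, and signal through small adaptors with ITAM motifs (short tyrosine motifs that recruit the kinase SYK). They also make C1q, the recognition part of the classical complement pathway, and hold abundant lysosomal proteins. Most of these transcripts are shared with other leukocytes, and MRC1 is also made by lymphatic and sinusoidal endothelium.

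The promoters of 3 members are shown because these genes had different patterns: Lyz2 was the leading member in the pools richest in macrophage transcripts, Laptm5 rose with it there but was also found elsewhere, and Mrc1 stood apart. The sequences are RefSeq windows of GRCm38.p6 from 250 bases before to 50 bases after the start that the table gives the gene, written 5′ to 3′ on the strand of the gene. Capitals mark GAGGAAG, the core of sites for PU.1 (Spi1, the ETS factor of myeloid cells), or its reverse complement CTTCCTC. The windows are Lyz2 at chr10:117282223-117282522 on the minus strand, Laptm5 at chr4:130913066-130913365 on the plus strand and Mrc1 at chr2:14229164-14229463 on the plus strand. The Laptm5 window lies downstream of the outermost RefSeq start of that gene, base 130912890, and so within its longest gene model.
Lyz2: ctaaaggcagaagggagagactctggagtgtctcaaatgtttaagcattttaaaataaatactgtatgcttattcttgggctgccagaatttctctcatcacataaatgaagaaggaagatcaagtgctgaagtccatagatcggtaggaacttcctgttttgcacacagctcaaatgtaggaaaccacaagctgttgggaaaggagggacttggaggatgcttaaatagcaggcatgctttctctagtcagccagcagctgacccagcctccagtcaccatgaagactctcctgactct
Laptm5: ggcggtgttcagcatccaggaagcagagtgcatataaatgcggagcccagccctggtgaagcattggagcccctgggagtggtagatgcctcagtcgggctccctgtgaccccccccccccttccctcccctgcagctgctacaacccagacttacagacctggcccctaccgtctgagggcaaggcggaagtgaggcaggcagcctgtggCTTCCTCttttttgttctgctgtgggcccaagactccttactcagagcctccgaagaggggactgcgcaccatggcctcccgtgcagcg
Mrc1: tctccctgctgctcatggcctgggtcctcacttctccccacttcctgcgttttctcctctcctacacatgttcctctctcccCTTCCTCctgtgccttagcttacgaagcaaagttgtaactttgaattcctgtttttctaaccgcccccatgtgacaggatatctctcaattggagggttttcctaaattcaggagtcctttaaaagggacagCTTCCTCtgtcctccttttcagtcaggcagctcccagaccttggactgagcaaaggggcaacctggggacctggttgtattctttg
Promoter windows were matched for 6 of the 9 members, and GAGGAAG was present on either strand in 2 of the 6, Laptm5 and Mrc1. It was present in 13.6% of all 32851 promoter windows. A C/EBP-type motif, TTGCNNAA, was present in 1 of the 6 (Cd68) and in 10.8% of all windows, and an AP-1 motif, TGANTCA, also in Cd68 alone and in 7.81% of all windows. The GATA motif AGATAA was in none of the 6 and in 11.2% of all windows. These motifs, searched on both strands, describe letters and do not show that a factor binds.

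Tumor libraries held 4661044 to 14455093 counts and sprout libraries 12327030 to 16804071, so that 3 counts, the limit that a count of 0 allows, equalled 0.208 to 0.644 counts per 1000000 of the library total in tumor ECs and 0.179 to 0.243 in sprout ECs. All other values in CPM are counts per 1000000 of a library size scaled by TMM, a factor for differences in composition. Such limits and all binomial intervals cover counting error only. Apln itself, the targeted gene, stood at 12.1, 8.51 and 2.44 CPM in the Apelin-depleted libraries and at 416 to 1033 CPM in the Apelin wild-type libraries. In sprouts Apln was at 66.1 and 80.2 CPM in STOP and 58.2 and 65.9 CPM in GO, so its level does not check the STOP label. A list of 12 endothelial marker genes, among them Pecam1, Cdh5 and Eng, took 0.638% to 1.18% of the counts in tumor ECs. In sprouts the same 12 genes took 0.0602% and 0.0813% in STOP and 0.224% to 0.243% in GO, and 11 of the 12 passed the test as lower in STOP. The 4 with the lowest p were Tie1 (log2 fold change -2.26), Erg (-2.35), Tek (-1.84) and Kdr (-1.95), with adjusted p of 0.00242 to 0.00437 by edgeR, and Pecam1 (-0.80) did not reach the fold change that a call needs.

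The 9 transcripts were a small part of every pool, and the tumor pools differed widely. Together they took 0.125% of the counts in Apelin-depleted replicate 1 (exact 95% interval 0.122% to 0.128%), 0.00488% in replicate 2 and 0.00709% in replicate 3. In Apelin wild-type ECs the lowest share was 0.00514% (replicate 6), the median 0.0129% and the highest 0.0775% (replicate 4, interval 0.0750% to 0.0801%). The Apelin-depleted group therefore held both the richest and the poorest pool of the tumor set, 25.6 times apart. Group means were 0.0456% ± 0.0687 (SD, n = 3) in Apelin-depleted ECs and 0.0231% ± 0.0273 (SD, n = 6) in Apelin wild-type ECs, and the groups overlapped. Set against the endothelial markers, the members had 128 counts for every 1000 endothelial counts in Apelin-depleted replicate 1 and 76.5 in Apelin wild-type replicate 4, against 4.12 to 26.2 in the other tumor libraries. In these bulk pools, fewer macrophages and less macrophage RNA per cell cannot be told apart.

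**Figure D1:**
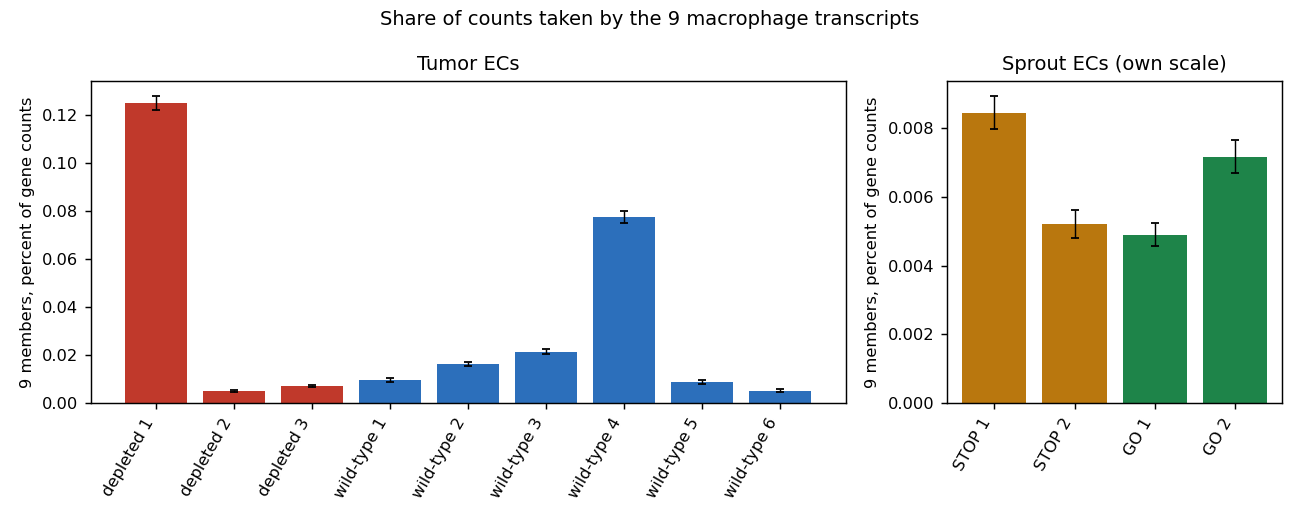
Bars give the percent of all gene counts taken by the 9 members in each library, with exact 95% binomial intervals as error bars, for tumor ECs (left) and sprout ECs (right, on a scale of its own). Apelin-depleted replicate 1 (0.125%) and Apelin wild-type replicate 4 (0.0775%) stand above the other tumor pools, and the sprout pools lie between 0.00491% and 0.00846%.

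The make-up of the macrophage signal changed from pool to pool. Lyz2 made up 48.5% of the members' counts in Apelin-depleted replicate 1 and 63.5% in Apelin wild-type replicate 4. Fcer1g made up 78.0% in Apelin-depleted replicate 2, Laptm5 41.1% in Apelin-depleted replicate 3, and Mrc1 61.0% in Apelin wild-type replicate 3. Which gene led thus differed between these pools. By median level per length, in CPM per kilobase of transcript over the 9 tumor libraries, Fcer1g came first at 48.8, then Lyz2 at 13.9, C1qb at 9.53, Cd68 at 8.12, Tyrobp at 7.99, Laptm5 at 5.83, C1qa at 4.08, Mrc1 at 0.817 and Csf1r at 0.472. The ranges of all neighbours in this order overlapped.

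Among the receptors, Csf1r, which carries the survival signal of CSF1 and IL-34, was at 20.7 CPM in Apelin-depleted replicate 1, at 0.0704 CPM in replicate 2 (1 count) and at 0 in replicate 3. In Apelin wild-type ECs it ran from 0.141 CPM (1 count) through a median of 2.28 to 18.1 CPM in replicate 4. Only Apelin-depleted replicate 1 and Apelin wild-type replicate 4 rose above 5 CPM, and the groups overlapped. The fitted log2 fold change, Apelin-depleted over wild-type, was 0.61 (SE 1.62, adjusted p = 1.00 by edgeR's quasi-likelihood test), and the difference of the group means of log2(CPM + 1) had the opposite sign, -0.23. The 3′ end of Csf1r overlaps Hmgxb3 on the other strand, and reads from both cannot be told apart where strand was not kept.

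Mrc1, the mannose receptor CD206, had another distribution. It was at 16.8, 3.94 and 1.58 CPM in Apelin-depleted ECs, and ran from 2.12 CPM through a median of 5.92 to 125 CPM in Apelin wild-type ECs. The top value, in Apelin wild-type replicate 3, rested on 1270 counts, while the other 8 libraries held 13 to 99. In that library Csf1r was at 4.32 CPM and Tyrobp at 7.76 CPM, whereas Stab2, a scavenger receptor of sinusoidal endothelium, was at 213 CPM against 0 to 6.12 CPM in the other 8. Lyve1, a marker of lymphatic and sinusoidal endothelium, was at 1712 CPM in the same library, at 1081 CPM in Apelin-depleted replicate 2, where Mrc1 was at 3.94 CPM, and at 632 CPM in Apelin-depleted replicate 1, where Mrc1 was at 16.8 CPM. The log2 fold change of Mrc1 was -1.79 (SE 1.38, adjusted p = 1.00, edgeR), and without Apelin wild-type replicate 3 it was 0.36. The part of Stab2-positive cells in the Mrc1 value was not tested.

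The adaptors Tyrobp (DAP12) and Fcer1g (the common gamma chain of Fc receptors) both couple surface receptors to SYK, and both were highest in Apelin-depleted replicate 1, but they differed in other libraries. Tyrobp was at 151 CPM in Apelin-depleted replicate 1, 0 in replicate 2 and 7.31 CPM in replicate 3, and ran from 0.293 CPM through a median of 3.57 to 56.6 CPM (replicate 4) in Apelin wild-type ECs. Fcer1g was at 190, 38.7 and 23.3 CPM in Apelin-depleted ECs, and ran from 11.5 CPM through a median of 29.8 to 64.8 CPM in Apelin wild-type ECs. Fcer1g was thus never below 81 counts in a tumor library, whereas Tyrobp fell to 3 counts or fewer in Apelin-depleted replicate 2 and Apelin wild-type replicate 2. In Apelin-depleted replicate 2 the 550 counts of Fcer1g stood beside 0 counts of Tyrobp, 0 of Ptprc (CD45, the leukocyte antigen sorted against) and 1 of Csf1r. The log2 fold changes were 2.10 (SE 1.84) for Tyrobp and 1.24 (SE 0.59, unadjusted p = 0.0542) for Fcer1g, with an adjusted p of 1.00 for both by edgeR. Over the 9 tumor libraries the pair had r = 0.51 (exact permutation p = 0.159) and rho = 0.13 (p = 0.744), and r = -0.68 without Apelin-depleted replicate 1 and Apelin wild-type replicate 4.

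C1qa and C1qb encode the A and B chains of C1q, which are assembled into 1 protein with C1qc. The genes lie close together on chromosome 4, at chr4:136895916-136898844 and chr4:136880126-136886200 in GRCm38. C1qa was at 4.42, 2.67 and 2.92 CPM in Apelin-depleted ECs and ran from 0.393 CPM through a median of 8.85 to 13.9 CPM in Apelin wild-type ECs. C1qb was at 20.7, 0.211 and 2.19 CPM in Apelin-depleted ECs and ran from 1.64 CPM through a median of 10.4 to 21.9 CPM in Apelin wild-type ECs. The chains were not measured in a fixed ratio. Apelin wild-type replicate 1 had 76 counts of C1qa and 115 of C1qc but 9 of C1qb, and Apelin wild-type replicate 6 had 110 of C1qb but 7 of C1qa and 10 of C1qc. Their correlation over the 9 tumor libraries was r = 0.23 (exact permutation p = 0.543, rho = 0.12, p = 0.776), and 0.34 without Apelin wild-type replicates 1 and 3. Log2 fold changes were -1.16 (SE 1.14) for C1qa and -0.44 (SE 1.13) for C1qb, both with an adjusted p of 1.00 by edgeR, and C1qb turned to 0.14 without Apelin-depleted replicate 2.

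Lyz2, the macrophage lysozyme that digests bacterial walls, had the widest range in CPM of the 9. It was at 601 CPM in Apelin-depleted replicate 1, 2.18 in replicate 2 and 3.17 in replicate 3, and ran from 8.34 CPM through a median of 15.4 to 455 CPM (replicate 4) in Apelin wild-type ECs. The lower of the 2 high values was 19.7 times the next library's, 23.1 CPM. Its near-identical copy Lyz1 had 0 to 10 counts per tumor library, and reads that fit both copies could have been lost or misassigned. The log2 fold change of Lyz2 was 1.205 (SE 2.01, adjusted p = 1.00, edgeR), while the difference of means of log2(CPM + 1) was -0.35.

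The lysosomal membrane proteins followed the same libraries less steeply. Cd68, a heavily glycosylated lysosomal protein, was at 115, 0.985 and 4.26 CPM in Apelin-depleted ECs and ran from 0.695 CPM through a median of 10.1 to 40.7 CPM (replicate 4) in Apelin wild-type ECs. Laptm5, a lysosomal protein of hematopoietic cells that also restrains antigen-receptor signaling in lymphocytes, was at 119, 0.844 and 31.2 CPM in Apelin-depleted ECs and ran from 0.424 CPM through a median of 13.5 to 64.3 CPM (replicate 4) in Apelin wild-type ECs. In Apelin-depleted replicate 3 the 256 counts of Laptm5 stood beside 205 of Ptprc and 0 of Csf1r, and a list of 13 T and NK cell genes summed to 246 CPM there, against 10.5 to 55.4 CPM in the other tumor libraries. Log2 fold changes were 1.499 (SE 1.27) for Cd68 and 1.16 (SE 1.26) for Laptm5, both with an adjusted p of 1.00 by edgeR.

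**Figure D2:**
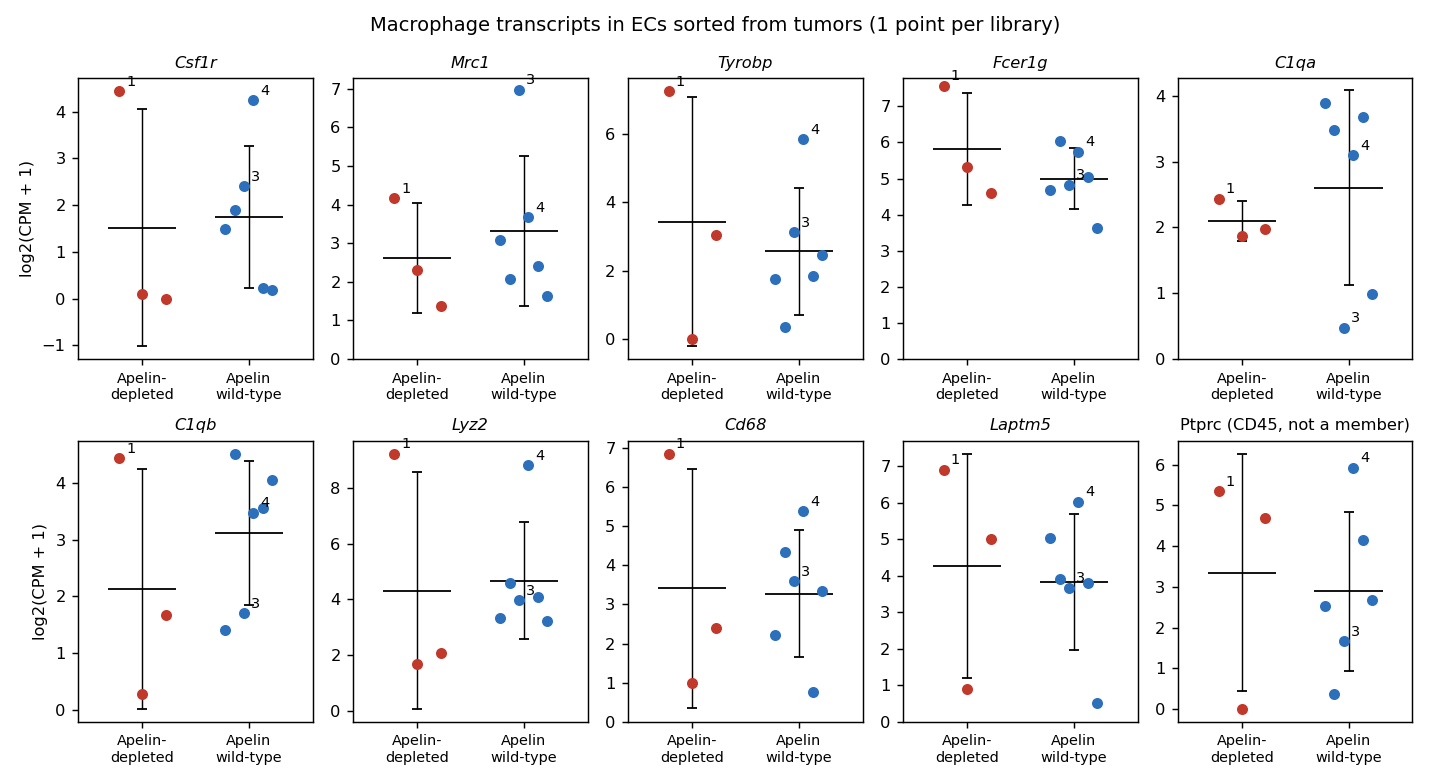
Each point is 1 tumor library on a log2(CPM + 1) axis, for the 9 members and Ptprc, with the group mean (long bar) and SD (error bar), and with Apelin-depleted replicate 1 and Apelin wild-type replicates 3 and 4 numbered. Apelin-depleted replicate 1 and Apelin wild-type replicate 4 lead in Csf1r, Tyrobp, Lyz2, Cd68 and Laptm5, Apelin wild-type replicate 3 leads in Mrc1, and the groups overlap for all 9 members.

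Macrophage transcripts did not separate the tumor groups. None of the 9 members passed the test in either direction, none had an unadjusted p under 0.05, and none had groups that did not overlap (edgeR, n = 3 and 6). DESeq2, which gave Lyz2 and Mrc1 no p, called none of the other 7 and gave none of them an unadjusted p under 0.05. Of the 13073 genes tested, edgeR called 0.00765% lower (Apln alone) and 0.0% higher in Apelin-depleted ECs, 2.94% and 1.87% had an unadjusted p under 0.05 lower and higher, and 1.27% and 1.06% did not overlap, lower and higher. Exact two-sided permutation tests over samples gave p = 0.333 (Fcer1g) to 0.929 (Lyz2) for the members. With all libraries 6 members had a fitted value above 0 and 3 below, but the direction rested on 1 pool: without Apelin-depleted replicate 1 all 9 were below 0, and none was called. The median log2 fold change of the members was 1.16 with all libraries, beside -0.03 over all tested genes.

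**Figure D3:**
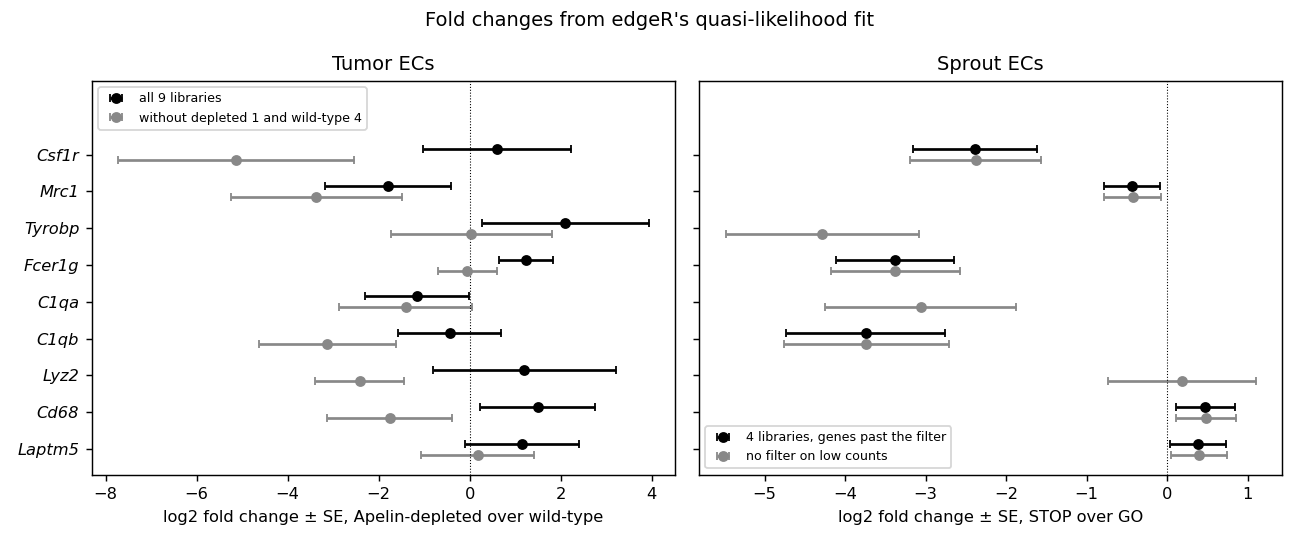
Points give edgeR's log2 fold change for each member, with an SE derived from it and the F statistic of its test. Left is Apelin-depleted over wild-type with all 9 tumor libraries and without the 2 richest pools. Right is STOP over GO with and without the filter on low counts. In tumor ECs the values move across 0 for Csf1r, Lyz2, Cd68 and Fcer1g, and in sprout ECs Cd68, Laptm5 and Lyz2 lie near 0 while Tyrobp, Fcer1g, C1qb, C1qa and Csf1r lie below -2.

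Of the 9 members, 5 (Csf1r, Tyrobp, Lyz2, Cd68 and Laptm5) had their 2 highest values in Apelin-depleted replicate 1 and Apelin wild-type replicate 4, a pattern shown by 2.74% of all tested genes. The 2 pools had been picked out by the members' summed level, so this count describes the choice. Ptprc was also highest there, at 39.6 and 59.95 CPM against 0 to 24.98 CPM in the other 7. A list of 24 further macrophage genes summed to 771 CPM in Apelin-depleted replicate 1 and 366 CPM in Apelin wild-type replicate 4, against 69.0 to 332 CPM in the others, and 0 of its 19 tested genes was called. Adgre1 (F4/80), the classical surface marker of mouse macrophages, was at 1.53 and 6.55 CPM (9 and 33 counts) in these 2 pools. Elsewhere it was at 0.281 to 2.69 CPM (2 to 19 counts). The 14 pan-leukocyte genes summed to 502 and 554 CPM there, against 174 to 261 CPM in the other 7. The part of other leukocytes in the members' levels was not tested.

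Of the marker lists summed, only the neutrophil list, outside the 9 members, had groups that did not overlap in summed level. It is singled out from several lists for this, so its separation is no support for a difference. The 12 neutrophil genes summed to 2.21, 3.17 and 0.244 CPM in Apelin-depleted ECs and ran from 6.16 CPM through a median of 13.7 to 26.01 CPM in Apelin wild-type ECs, so the groups did not overlap. Only 3 of the 12 passed the filter on low counts, S100a8, S100a9 and Mpo, and those 3 passed through their counts in Apelin wild-type ECs. S100a8, a calcium-binding protein abundant in neutrophils, had 0 counts in all 3 Apelin-depleted libraries and 4 to 94 counts, with a median of 38, in Apelin wild-type libraries. Its partner S100a9 had 0 to 1 counts in Apelin-depleted and 2 to 54 in Apelin wild-type libraries, and Mpo, the granule enzyme myeloperoxidase, had 0 counts in all Apelin-depleted and 0 to 36 in Apelin wild-type libraries, which overlap. None of the 3 was called (adjusted p = 0.686, 0.906 and 0.975, edgeR), and since the filter kept them for their wild-type counts, their lower values are no support for a difference. Of the genes under the filter, Mmp9, Mmp8, Ly6g, Elane, Retnlg and Camp also had lower mean levels in Apelin-depleted ECs. Their means were 0 to 0.17 CPM there and 0.064 to 1.14 CPM in Apelin wild-type ECs. Csf3r was near equal, at 0.69 and 0.61 CPM, and Ngp had 0 counts in all tumor libraries. Cxcr2, a chemokine receptor, went the other way. It had 30 counts over the Apelin-depleted libraries, 29 of them in 1 library, and 7 over the Apelin wild-type libraries.

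Few pairs of members varied together beyond the test. Of the 36 pairs among the 9 members, 32 had a positive r over the 9 tumor libraries, with a median of 0.49 (0.23 over the 7 libraries without these pools), and 3 had a Benjamini-Hochberg adjusted p under 0.05 by exact permutation. These 3 were Csf1r with Lyz2 (r = 0.93, permutation p = 0.00125, adjusted 0.0326, rho = 0.90, p = 0.00203), Csf1r with Cd68 (r = 0.88, permutation p = 0.00181, adjusted 0.0326, rho = 0.77, p = 0.0214) and Lyz2 with Cd68 (r = 0.85, permutation p = 0.00377, adjusted 0.0452, rho = 0.70, p = 0.0433). No pair passed by rho after adjustment. Apelin-depleted replicate 1 and Apelin wild-type replicate 4 were the 2 libraries farthest from the median of the first-named gene in each of these 3 pairs. Without them r was 0.66, 0.65 and 0.49. Within the 6 Apelin wild-type libraries, replicate 4 among them, r was 0.84, 0.78 and 0.66. No pair of the 36 passed over the 7 libraries (lowest adjusted p = 0.893 by exact permutation) or over the 6 libraries. At 6 libraries adjustment over 36 pairs leaves little room to pass. That no pair passed does not show that the relations are absent there. The values share library and depth.

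**Figure D4:**
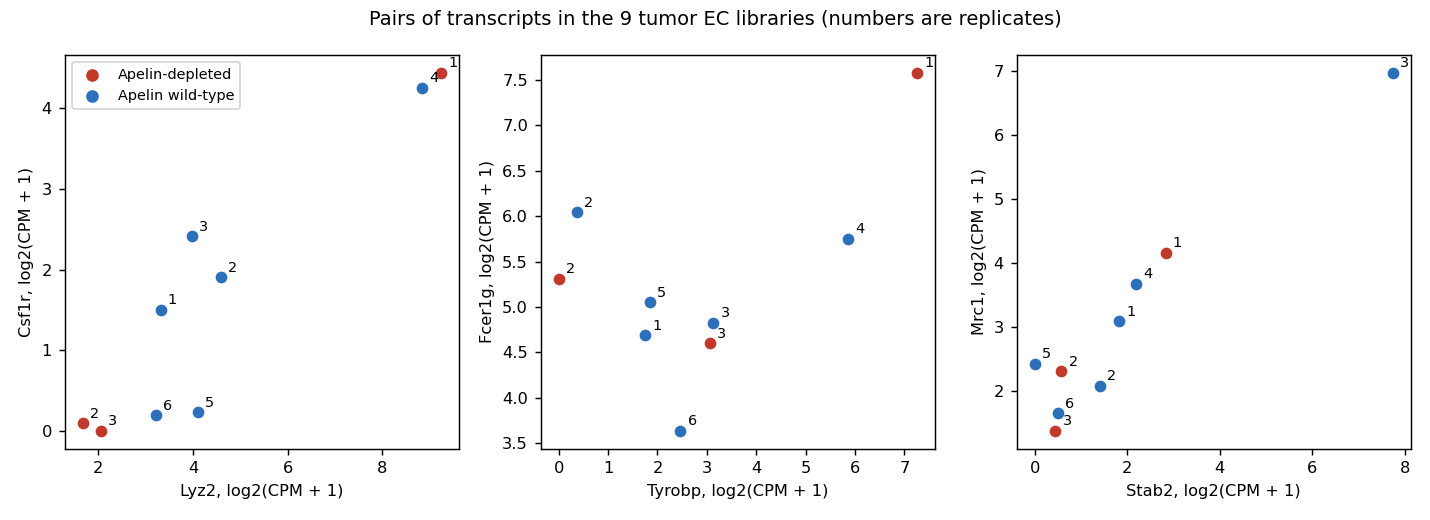
Each point is 1 of the 9 tumor libraries, numbered by replicate, with both axes in log2(CPM + 1), for Csf1r against Lyz2 (left), Fcer1g against Tyrobp (middle) and Mrc1 against Stab2 (right). Apelin-depleted replicate 1 and Apelin wild-type replicate 4 lie farthest out in the first pair (r = 0.93), Apelin-depleted replicate 2 holds Fcer1g at 38.7 CPM with Tyrobp at 0, and Apelin wild-type replicate 3 is alone at 125 CPM of Mrc1 and 213 CPM of Stab2.

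The genes most like the members over the 9 tumor libraries, by r with the log2 of the members' summed level, were Mfsd2a (0.96), a lipid transporter of brain endothelium and liver, Cytip (0.96), a leukocyte adaptor, Acta1 (0.95), skeletal muscle actin, Ms4a4a (0.94), a macrophage membrane protein, and Pou2f2 (0.94), a lymphoid and myeloid transcription factor. Ms4a4a was at 46.1 and 14.9 CPM in Apelin-depleted replicate 1 and Apelin wild-type replicate 4. Acta1 was at 40.3 and 7.54 CPM in the same libraries. The genes were picked for this likeness, which is given without a test, and Ptprc ranked 691st with r = 0.58.

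Ligands and partners of the members were measured in the same tumor pools. Il34, a ligand of CSF1R, was at 2.89, 9.92 and 12.7 CPM in Apelin-depleted ECs and ran from 14.6 CPM through a median of 33.4 to 46.9 CPM in Apelin wild-type ECs, so the groups did not overlap. Its log2 fold change was -1.89 (SE 0.61, unadjusted p = 0.00711, adjusted p = 0.909, edgeR). Csf1, the other ligand, was at 84.6 to 167 CPM in Apelin-depleted ECs and 70.7 to 170 CPM in Apelin wild-type ECs. Syk, the kinase recruited by Tyrobp and Fcer1g, was at 88.0, 12.03 and 94.8 CPM against 8.34 to 40.3 CPM, with a log2 fold change of 1.45 (SE 0.59, unadjusted p = 0.0257, adjusted p = 0.981, edgeR). None of the 6 genes of CSF1R ligands and signaling was called, nor any of the 8 tested genes among 13 ITAM partner receptors and kinases, the 9 tested among 10 classical complement genes or the 12 tested among 13 lysosomal and scavenging genes.

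Sprout ECs carried another profile of the same 9 transcripts. Their share of counts was 0.00846% and 0.00522% in STOP and 0.00491% and 0.00717% in GO, and the groups overlapped. Set against the 12 endothelial markers, which were lower in STOP, the members had 141 and 64.2 counts for every 1000 endothelial counts in STOP and 20.2 and 31.96 in GO, and on this scale the groups did not overlap. Cd68 and Laptm5 made up most of it in all 4 libraries. In the deposited TPM (transcripts per 1000000, a level per length), the median over the 4 libraries was 28.2 for Cd68 and 19.8 for Laptm5, then 1.86 for Mrc1, 1.51 for Fcer1g, 1.02 for Tyrobp, 0.77 for C1qb, 0.615 for Lyz2, 0.37 for C1qa and 0.235 for Csf1r. Cd68 and Laptm5 overlapped in range, as did all neighbours below Mrc1, and Laptm5 lay above Mrc1 in every library.

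The receptor Csf1r and the adaptor and C1q members were close to the limit of detection in STOP and low in GO. Fcer1g had 2 and 2 counts in STOP and 19 and 27 in GO (0.135 and 0.163 CPM against 1.12 and 2.18 CPM). Tyrobp had 1 and 0 counts in STOP and 10 and 15 in GO, and Csf1r 2 and 4 in STOP and 13 and 21 in GO. C1qa had 2 and 0 counts in STOP and 6 and 13 in GO, and C1qb 0 and 2 in STOP and 15 and 17 in GO. Mrc1 was at 3.93 and 6.76 CPM in STOP and 7.43 and 6.94 CPM in GO. For these 6 members both STOP libraries lay below both GO libraries, while 29.6% of all tested genes did the same and 31.0% had both STOP libraries above both GO libraries. Tyrobp and C1qa fell under the filter on low counts and are not among the tested genes.

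Cd68, Laptm5 and Lyz2 overlapped between the groups. Cd68 was at 39.4 and 18.5 CPM in STOP and 18.6 and 23.2 CPM in GO, and Laptm5 at 41.2 and 26.3 CPM in STOP and 18.6 and 33.3 CPM in GO. Lyz2, the leading member of the richest tumor pools, had only 10 and 2 counts in STOP and 5 and 6 in GO. High Cd68 and Laptm5 therefore stood beside 0 to 12 counts of Ptprc in the sprout libraries.

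Fcer1g was the one member called, lower in STOP, with a log2 fold change of -3.38 (SE 0.73, adjusted p = 0.0387, edgeR), where 3.03% of 14557 tested genes were called lower and 0.852% higher. The call was made on 4 counts against 46, a ratio of 10.8 in GO over STOP with an exact 95% counting interval of 3.93 to 41.2. It was lost when any 1 of the 4 libraries was left out (adjusted p = 0.0923 to 0.245, edgeR), with log2 fold changes of -3.80 to -2.85. A replicate block also ended the call (log2 fold change -3.34, adjusted p = 0.113, edgeR). Same-numbered sprout libraries were not pairs (r = -0.39), so the block is no check of the call. Rounded RSEM counts (adjusted p = 0.0347, edgeR) and no filter on low counts (adjusted p = 0.00639, edgeR) kept it. C1qb had a log2 fold change of -3.75 (SE 0.99, adjusted p = 0.0645, edgeR) and a counting ratio of 15.0 (3.82 to 129), and Csf1r -2.38 (SE 0.77, adjusted p = 0.106, edgeR) and a ratio of 5.31 (2.20 to 15.5). Fcer1g, C1qb and Csf1r passed the filter on low counts only through their GO counts. Their lower STOP values are thus no support for a difference. Tyrobp, C1qa and Lyz2 fell under the filter on low counts. Without that filter Tyrobp passed at -4.28 (adjusted p = 0.0208, edgeR) and C1qb at -3.74 (adjusted p = 0.0177, edgeR). Mrc1 at -0.43 (SE 0.35, adjusted p = 0.460), Cd68 at 0.47 (SE 0.37, adjusted p = 0.458) and Laptm5 at 0.39 (SE 0.35, adjusted p = 0.522) did not pass edgeR's test.

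**Figure D5:**
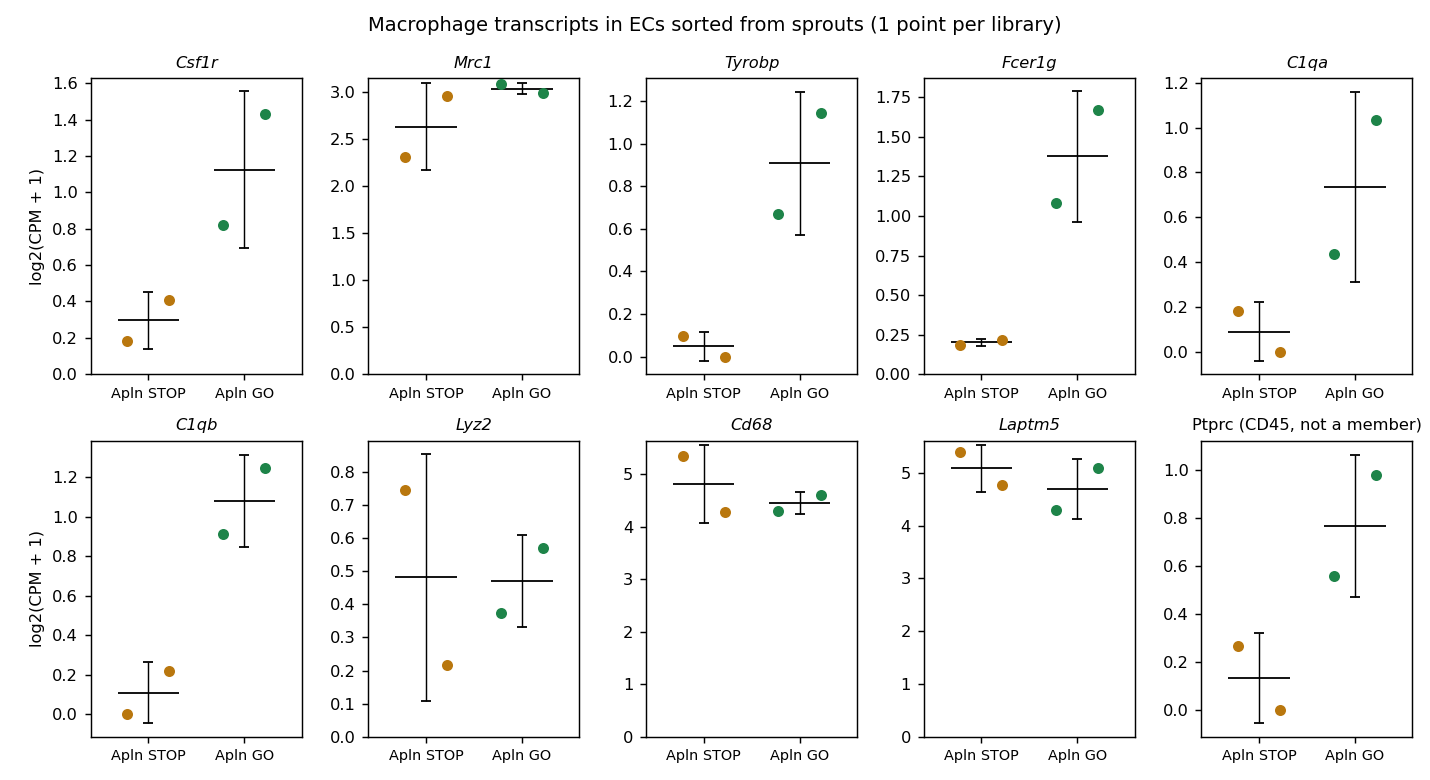
Each point is 1 sprout library on a log2(CPM + 1) axis, for the 9 members and Ptprc, with the group mean (long bar) and SD (error bar, n = 2) and a scale of its own in each panel. Fcer1g, Tyrobp, C1qa, C1qb and Csf1r are at 4 counts or fewer in STOP and at 6 to 27 counts in GO, while Cd68 and Laptm5 overlap.

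Further macrophage genes did not all go one way in the sprouts. Of the 24 on the list, 12 had both STOP libraries below both GO libraries, 2 had them above and 10 overlapped. Among all tested genes 29.6% lay below and 31.0% above. These shares leave out genes under the filter on low counts, while the 24 include such genes, so they are not directly comparable. Of the 24, only 11 were tested, 0 were called and 2 (Ms4a7 and Ly6c2) were at 0 in all 4 libraries. C1qc, the partner of C1qa and C1qb, had 0 and 0 counts in STOP and 9 and 10 in GO. Adgre1 had 0 and 0 in STOP and 8 and 8 in GO. Spi1, which encodes PU.1, had 5 and 3 counts in STOP and 19 and 25 in GO (log2 fold change -2.36, SE 0.65, adjusted p = 0.0707, edgeR), and passed the filter only through GO. Fcgr3, an Fc receptor that signals through Fcer1g, had 30 and 15 counts in STOP and 26 and 21 in GO (log2 fold change 0.02, adjusted p = 0.979, edgeR). The summed level of the list was 17.3 and 14.5 CPM in STOP and 23.8 and 26.2 CPM in GO. The endothelial list summed to 610 and 816 CPM in STOP and 2408 and 2233 CPM in GO, and 9 erythroid and platelet genes to 65.7 and 18.7 CPM in STOP and 211 and 316 CPM in GO. Stab1, a scavenger receptor of macrophages and endothelium, was called lower in STOP (log2 fold change -2.24, SE 0.17, adjusted p = 0.00242, edgeR). Called lower in STOP as well were Lcp1, a leukocyte actin-bundling protein (-2.08, SE 0.21, adjusted p = 0.00437, edgeR), Flt4, the VEGFC receptor (-1.71, SE 0.14, adjusted p = 0.00242, edgeR), and Cd93, a surface glycoprotein of endothelial and myeloid cells (-1.96, SE 0.31, adjusted p = 0.0313, edgeR). Lcp1 was the only gene called of 11 tested pan-leukocyte genes, of which 5 had log2 fold changes below 0 and 6 above. The part of the endothelial and blood-cell content of these pools in the members' difference was not tested.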

How the data were processed

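RNA-Seq was analysed from 9 tumor EC libraries (50-bp reads) and 4 sprout EC libraries. The authors deposited whole-number counts per gene for both sets, from featureCounts (Subread 1.6.2) for tumor ECs and from HTSeq 0.6.1p1 after STAR 2.5.0a for sprout ECs, on mm10. For tumor ECs the submitters' processing notes list Bowtie2 2.3.4.1 and Trim Galore 0.5.0, while the study's methods name STAR. For sprout ECs the authors also deposited expected counts and TPM from RSEM 1.2.25. TPM were used for levels per length, and expected counts, rounded, as an alternative. In the sprout count files 54.1% to 59.1% of tallied reads were unassigned and were left out. HTSeq leaves out reads placed at several sites, which affects genes with near-identical copies. No column of per-sample values belonged to another series (0).

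The quasi-likelihood test of edgeR 4.0.16 (R 4.3.3, limma 3.58.1) was run on TMM-normalized counts, in 1 fit per set, after filterByExpr with its minimum count of 10, with Benjamini-Hochberg adjustment over all tested genes. Calls needed an adjusted p under 0.05 together with a log2 fold change beyond 1 in size. The test gives no SE, so each SE printed with an edgeR value is approximate. It is the size of the log2 fold change divided by the square root of the test's F statistic. CPM are counts per 1000000 of the TMM-scaled library size, while limits of detection use the unscaled total, and single values were tested by exact permutation on log2(TMM CPM + 1). CPM per kilobase in tumor ECs used the transcript lengths of the RSEM files. The script was tested on simulated data. No pair of replicates agreed within sampling noise, so none was counted once. Batches were not labelled.

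The text names all 9 members, the gene sorted against, the targeted gene, ligands and partners of the members, called genes of the marker lists (the 4 with the lowest p where over 10 were called), and the 5 genes most like the members. Members and lists were chosen with earlier results of these data known. Alternatives were DESeq2 1.42.0, its size factors, other filters, voom with library weights, a replicate block, RSEM counts, other scales and denominators, and leaving out each library. Precision was limited by 3 counts per library.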

Additional observations from a re-analysis of the deposited data

Results flagged for a closer look

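Of the 10 values checked over the 6 Apelin wild-type tumor libraries (9 members and their summed share), 5 had 1 library far from the other 5. The limit used would flag about 1 in 20 such groups if the values were normally distributed. The check was made on untransformed CPM and percent, which were skewed to high values, so that rate does not hold here. The 10 values are also not independent, since they share libraries and the share is built from the members. Apelin wild-type replicate 4 stood apart at 18.1 CPM for Csf1r, 455 CPM for Lyz2, 56.6 CPM for Tyrobp and 0.0775% for the members' share of counts. Apelin wild-type replicate 3 stood apart at 125 CPM for Mrc1. The groups of 3 and 2 libraries were too small for this check.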

How the results depend on the processing

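In tumor ECs 0 members were called under every alternative. Their direction depended on the setting. With the replicate block the log2 fold changes were -3.50 (Csf1r), -1.03 (Lyz2) and -0.88 (Cd68). Apelin wild-type libraries without a same-numbered Apelin-depleted library added nothing to that contrast. Replicate 4, a rich pool, was among them, so the block in effect left it out. With voom the log2 fold changes were -1.78 (Csf1r), -0.77 (Lyz2), -0.54 (Cd68) and -0.65 (Tyrobp). Without Apelin-depleted replicate 1 and Apelin wild-type replicate 4, chosen after seeing the data, they were -5.13 (Csf1r), -2.41 (Lyz2), -1.76 (Cd68) and -0.054 (Fcer1g). Leaving out 1 tumor library gave -6.37 to 1.88 (Csf1r), -5.04 to 3.82 (Lyz2), -2.44 to 2.17 (Cd68), -1.77 to 3.90 (Tyrobp), -0.20 to 1.68 (Fcer1g), -0.49 to 1.83 (Laptm5), -3.12 to 0.14 (C1qb) and -3.22 to 0.36 (Mrc1), the lowest in each without Apelin-depleted replicate 1. The log2 ratio of the members' share, 0.98 with all tumor libraries, was -1.03 without both richest pools and -1.95 to 1.904 leaving out 1. In sprout ECs Cd68 ranged from -0.15 to 0.91 leaving out 1 library. Of the members, 1 was called in sprouts, 0 with the replicate block (Fcer1g -3.34, adjusted p = 0.113, edgeR), 0 leaving out 1 library (range 0 to 0), 3 without a filter, 3 with the numbers crossed (chosen after seeing the data) and 0 by DESeq2, which gave Fcer1g, C1qb and Csf1r no adjusted p. Same-numbered libraries correlated at -0.06, 0.05 and -0.11 in tumor ECs and -0.39 in sprout ECs, so the numbers do not pair the samples. The log2 ratio of the sprout share was 0.18, and 1.97 per endothelial count. Of 36 pairs, 3 passed, 13 on the CPM scale, 0 in the 6 wild-type libraries and 0 without the 2 richest pools. Over all genes, 1 was called lower and 0 higher in tumor ECs, 97 and 19 by DESeq2, 7 and 9 without a filter and 2 and 0 with the block. In sprouts 441 and 124 were, 628 and 198 by DESeq2, 632 and 222 without a filter, 41 and 3 with the block and 933 and 302 with crossed numbers. The cause was not tested. Depth limits the sprout members under 3 counts.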
